A study of Triticum aestivum with 6 samples.

Results

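TraesCS7D01G475100 and TraesCS7B01G391800 are 2 bread wheat genes that the study annotates as bZIP transcription factors. Their identifiers place them on chromosomes 7D and 7B, so they stand in the D and the B subgenome of hexaploid wheat. They were chosen because the study names them as higher in the innermost endosperm (IE) than in the remaining endosperm (RE), a choice made from counts of libraries that include the ones used here. The values of IE and RE that chose them are therefore given as a description, with no test. The pair makes up 2 of the 127196 genes of the table, and both passed the filter on low values that left 51830 genes for testing.

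The endosperm came from field-grown winter wheat of the cultivar Zhoumai36, from grains collected 25 days after anthesis. The pericarp was removed and the central section of each grain was divided by hand under a stereomicroscope into IE, the central lobes, and RE, the rest of the endosperm with the aleurone. RNA of 3 IE and 3 RE libraries was analysed here out of the 12 libraries of the study. The plants of the study were grown in the field at a low or a high nitrogen level, and since the labels do not say which applies to these libraries, nitrogen was left unassigned.

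The bZIP proteins bind DNA as dimers, through a basic region joined to a leucine zipper. In cereal endosperm the family is known for activators of storage protein genes, such as Opaque2 of maize, RISBZ1 of rice and SPA of wheat. Bread wheat carries 3 subgenomes, A, B and D, and most of its genes have a corresponding copy in each. RISBZ1 and SPA are named as background on the family, and no file used here assigns either name to a gene of the pair.

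Depth and library quality bear on every value that follows. The libraries held between 13959933 and 21766392 fragments on genes, which were recovered from the deposited values, and 3 fragments on a gene of 1 kb stand for 0.138 to 0.215 FPKM (fragments divided by gene length and by the total of the library). IE replicate 2 was no closer to the other IE libraries than to RE: over the genes tested its correlation was 0.897 and 0.860 with IE replicates 1 and 3, against 0.865, 0.915 and 0.910 with RE replicates 1, 2 and 3. IE replicate 1 likewise correlated at 0.912 with IE replicate 3 and at 0.924 with RE replicate 2. For the pair, values that rest on IE replicate 2 are given with and without it. Storage protein genes, a gliadin and globulins in the study's annotation, were read in every library, and the means of the 2 given here differed in opposite directions. The gliadin gene TraesCSU01G153800 averaged 42.3 ± 9.51 FPKM in IE against 23.6 ± 2.26 FPKM in RE, and the globulin gene TraesCS4D01G171800 averaged 249 ± 133 FPKM in IE against 425 ± 106 FPKM in RE (SD of n = 3 libraries).

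The 7D gene TraesCS7D01G475100 was read at 54.6 FPKM in IE replicate 1, 22.6 FPKM in IE replicate 2 and 73.0 FPKM in IE replicate 3. In RE replicates 1, 2 and 3 it was read at 18.7, 12.8 and 7.06 FPKM. The lowest IE library lay above the highest RE library, by a small margin that IE replicate 2 sets. The means were 50.1 ± 25.5 FPKM in IE against 12.9 ± 5.83 FPKM in RE (SD of n = 3 libraries), a ratio of means of 3.89. On the scale of log2(FPKM + 0.1) the difference was 1.90 with a standard error of 0.50, and it was 2.39 without IE replicate 2 and 1.53 without RE replicate 3. Behind these levels stood 664, 366 and 758 fragments in IE and 248, 181 and 110 fragments in RE.

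The 7B gene TraesCS7B01G391800, which the study also silenced in spikes with a virus vector, was read at 28.4, 15.4 and 35.2 FPKM in the same IE libraries, against 11.7, 7.54 and 4.71 FPKM in the RE libraries. Its regions did not overlap either, and IE replicate 2 again came closest to RE. The means were 26.4 ± 10.02 FPKM in IE against 7.99 ± 3.53 FPKM in RE (SD of n = 3 libraries), a ratio of means of 3.30. The difference on the scale of log2(FPKM + 0.1) was 1.72 with a standard error of 0.41, and it was 2.07 without IE replicate 2 and 1.40 without RE replicate 3. The values rested on 763, 552 and 806 fragments in IE and on 343, 235 and 162 fragments in RE. In such bulk tissue, fewer cells that use a gene and less RNA of it per cell cannot be told apart.

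**Figure D1:**
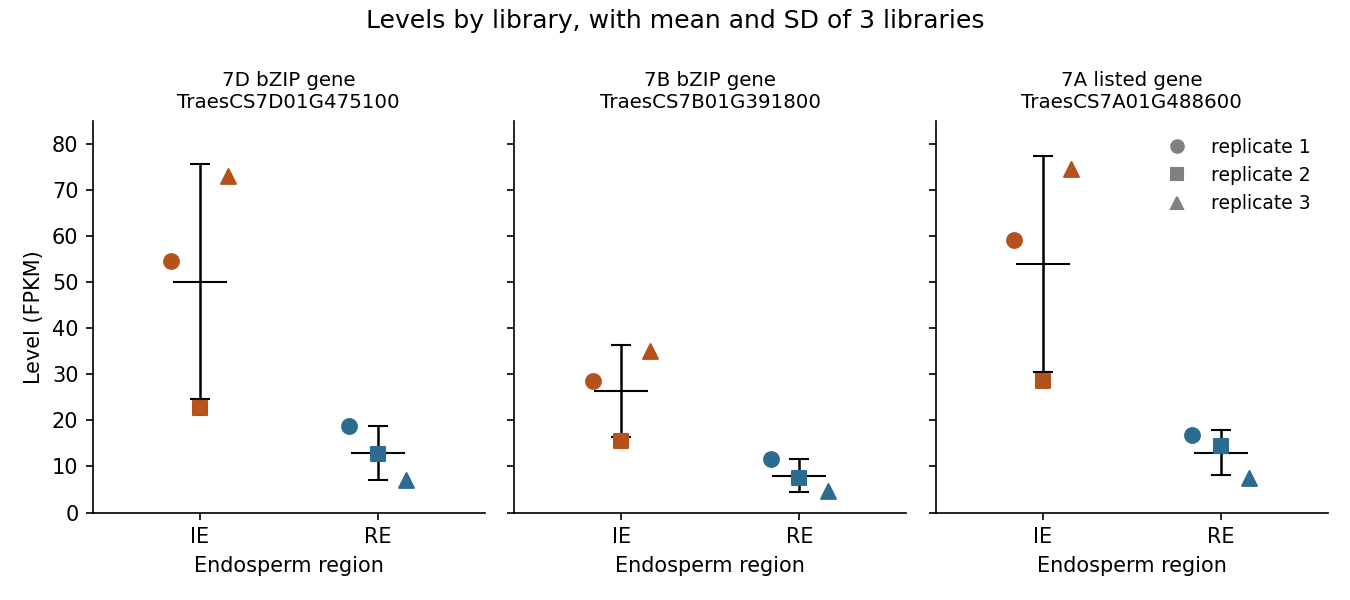
Levels in FPKM (vertical axis) of the 7D bZIP gene, the 7B bZIP gene and the 7A gene TraesCS7A01G488600, by endosperm region, IE left of RE. Each point is a library, its shape gives the replicate, and bars show the mean and SD of 3 libraries. The lowest IE library of the 7D gene (22.6 FPKM) and of the 7B gene (15.4 FPKM) lay above their highest RE libraries (18.7 and 11.7 FPKM).

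Over the whole table, limma called 0% of the 51830 genes (IE over RE, adjusted p limited to 0.05, change of at least 2-fold), and limma's voom on recovered fragments also called 0. At the same unadjusted p, 2980 genes passed. All 3 IE libraries lay above all 3 RE libraries in 4.35% of the genes tested and below them in 11.9%, and 1.46% lay above with at least a 2-fold difference. With libraries scaled by median ratios, 3576 genes lay above and 4434 below, against 2256 above and 6188 below on FPKM. Both members lay above with more than a 2-fold difference, a result that the way they were chosen favours. By its log2 fold change the 7D gene was 295th and the 7B gene 445th of the 51830 genes.

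Both genes were among the more abundant transcripts per length. By mean FPKM over the 6 libraries the 7D gene was 2517th and the 7B gene 4375th of the genes tested. In the IE libraries the 7D gene stood above 98.1%, 95.1% and 98.5% of the genes with a value, and in the RE libraries above 94.2%, 92.1% and 86.2%. The 7B gene stood above 96.5%, 93.1% and 97.1% of them in IE and above 91.3%, 87.1% and 80.7% in RE. RE replicate 3 held the lowest place for each of the genes.

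The summed level of the pair was 83.1, 38.0 and 108 FPKM in the IE libraries, against 30.4, 20.4 and 11.8 FPKM in the RE libraries. It averaged 76.4 ± 35.5 FPKM in IE against 20.9 ± 9.35 FPKM in RE (SD of n = 3 libraries), a ratio of means of 3.66. On the log2 scale the difference of the sum was 1.84, and it was 2.28 without IE replicate 2, 1.53 without IE replicate 3 and 1.49 without RE replicate 3. The spread within a region was wide for both genes. The coefficient of variation of the 7D gene was 50.9% in IE and 45.3% in RE, and that of the 7B gene was 38.0% in IE and 44.2% in RE.

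The question of which subgenome gave more transcript was compared within each library, which the choice of the members did not use. Per length, the 7D gene was at 1.92, 1.46 and 2.08 times the 7B gene in IE replicates 1, 2 and 3, and at 1.596, 1.70 and 1.499 times in RE replicates 1, 2 and 3. The level of the 7D gene was thus higher in 6 of 6 libraries, with a geometric mean ratio of 1.69 and a mean log2 ratio of 0.76 ± 0.20 (SD, n = 6). An exact two-sided sign-flip permutation test of the log2 ratio gave p = 0.03125, the smallest that 6 libraries allow, and 0.0469 after Benjamini-Hochberg adjustment over 3 ratios compared in this way. Any 5 of the libraries cannot reach 0.05 in that test. The sign-flip tests treat the 6 libraries as separate units. The labels do not say whether IE and RE libraries came from the same grains, in which case there would be fewer units and a larger smallest p.

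The direction of this ratio depended on the length by which the fragments are divided. Before division, the 7D gene had fewer fragments than the 7B gene in 6 of 6 libraries, at 0.87, 0.66 and 0.94 times in IE and 0.72, 0.77 and 0.68 times in RE, with a geometric mean of 0.768 (mean log2 ratio −0.38, exact sign-flip permutation p = 0.03125). The gene model recovered for the 7D gene is 744 bases long, and that for the 7B gene 1642 bases. Over the table, 72.5% of recovered lengths are multiples of 3, as coding sequences are. The 7D length is such a multiple and the 7B length is not. The part that the extent of the 7B gene model has in the FPKM ratio was not tested.

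The share of the 7D gene in the summed FPKM was 65.8% (95% exact Clopper-Pearson interval 63.3% to 68.1%) in IE replicate 1, 59.4% (56.1% to 62.6%) in IE replicate 2 and 67.5% (65.2% to 69.6%) in IE replicate 3. It was 61.5% (57.4% to 65.3%) in RE replicate 1, 63.0% (58.2% to 67.5%) in RE replicate 2 and 59.98% (53.8% to 65.8%) in RE replicate 3. The intervals come from the fragments of the pair and cover counting error only. IE replicates 1 and 3 had the highest shares, and the interval of IE replicate 2 overlapped neither of theirs. It overlapped those of all 3 RE libraries.

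The mean share of the 7D gene was 64.2% ± 4.26 in IE and 61.5% ± 1.49 in RE (SD of n = 3 libraries). The regions overlapped, and the difference of 2.75 percentage points became 5.15 without IE replicate 2 and 1.11 without IE replicate 3. The mean log2 ratio of the 7D to the 7B gene was 0.85 ± 0.26 in IE and 0.67 ± 0.09 in RE (SD of n = 3 libraries), so the fold change between regions was higher for the 7D gene by 0.17 on the log2 scale. This difference comes from the contrast that chose the pair and is given without a test. It was within the spread between IE libraries.

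For comparison, all genes of chromosome 7D took 58.3%, 55.0% and 59.5% of the FPKM summed over chromosomes 7B and 7D in the IE replicates, and 60.1%, 57.8% and 58.4% in the RE replicates. On FPKM the 7D share of the pair lay above the 7D share of the chromosomes in 6 of 6 libraries. On fragments not divided by length it lay below in 6 of 6, with 39.9% to 48.5% for the pair and 57.8% to 63.0% for the chromosomes. IE replicate 2 held the lowest value of each of these shares.

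**Figure D2:**
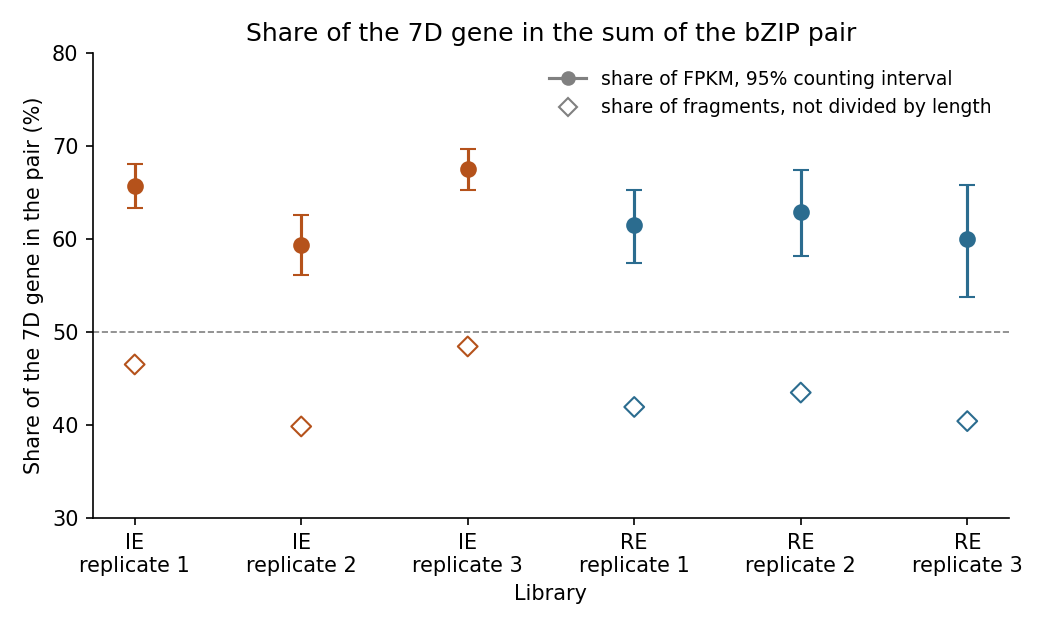
Share of the 7D gene in the sum of the bZIP pair (vertical axis, percent) in each library (horizontal axis), IE libraries on the left. Filled points are shares of FPKM with 95% counting intervals, open diamonds are shares of fragments not divided by gene length, and the dashed line marks equal shares. The shares of FPKM run from 59.4% to 67.5%, all above the line, and the shares of fragments from 39.9% to 48.5%, all below it.

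A gene of chromosome 7A, TraesCS7A01G488600, stands on the study's list of genes higher in IE under each nitrogen level. The sources used here give it no annotation, and they do not state whether it corresponds to the pair. It was read at 59.1, 28.4 and 74.5 FPKM in the IE libraries, against 16.9, 14.5 and 7.52 FPKM in the RE libraries. Its means were 54.0 ± 23.4 FPKM in IE against 13.0 ± 4.86 FPKM in RE (SD of n = 3 libraries), and its log2 fold change of 2.02 (2.43 without IE replicate 2) lay above those of both bZIP genes. The list was chosen on libraries that include these, so its direction is not independent evidence.

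The recovered length of the 7A gene is 756 bases, close to that of the 7D gene and a multiple of 3 as well. Per length, the 7A gene was at 1.08, 1.26 and 1.02 times the 7D gene in IE and at 0.90, 1.13 and 1.06 times in RE, above it in 5 of 6 libraries with a geometric mean of 1.07. The exact sign-flip permutation test gave p = 0.219, and the same value after adjustment over the 3 ratios. Against the 7B gene it was higher in 6 of 6 libraries, with a geometric mean ratio of 1.81 (exact sign-flip permutation p = 0.03125, adjusted 0.0469). This ratio also turned with the length: on fragments the 7A gene was below the 7B gene in 6 of 6 libraries, with a geometric mean of 0.836 (exact sign-flip permutation p = 0.03125).

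Of the FPKM summed over the 3 genes, the 7A gene took 41.7% ± 1.00, the 7B gene 20.8% ± 2.11 and the 7D gene 37.5% ± 3.10 in IE. In RE the 7A gene took 38.7% ± 2.98, the 7B gene 23.6% ± 1.73 and the 7D gene 37.6% ± 1.66 (SD of n = 3 libraries). The 7B gene had the smallest share in each of the 6 libraries on this scale, whereas by fragments not divided by length it had the largest in each of the 6. The shares of the 7A gene (40.8% to 42.8%) lay above those of the 7D gene (34.0% to 39.96%) in IE, and the shares of these genes overlapped in RE.

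The members followed each other from library to library within a region as well. In IE each was highest in replicate 3, next in replicate 1 and lowest in replicate 2, and in RE each was highest in replicate 1, next in replicate 2 and lowest in replicate 3. After the mean of each region was removed, Pearson's r was 0.988 between the 7D and the 7B gene, 0.9899 between the 7D and the 7A gene and 0.969 between the 7B and the 7A gene, over 6 libraries. These values describe 6 points that share library depth and composition and carry no p. The order of all 3 genes was kept when libraries were scaled by median ratios: the 7D gene was then at 55.8, 21.1 and 83.8 in IE and at 18.7, 11.6 and 6.54 in RE.

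The same order was not confined to the pair. It held in both regions for 1443 genes, or 2.78% of those tested, and for 103 of the 2256 genes with every IE library above every RE library. A share of 2.78% is also what equally likely orders of the 3 libraries in each region would give. Library depth ran the opposite way. IE replicates 3, 1 and 2 held 13959933, 16333349 and 21766392 fragments, and RE replicates 1, 2 and 3 held 17808462, 18979692 and 20935931. The share of summed FPKM taken by the 100 most abundant genes ran the same way as the pair, at 62.8%, 60.2% and 52.5% in IE replicates 3, 1 and 2 and at 56.2%, 55.9% and 53.1% in RE replicates 1, 2 and 3. The part of depth and composition in the order of the bZIP genes was not tested.

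Genes with the most similar profile were ranked by Pearson's r on log2(FPKM + 0.1) over the 6 libraries. Among 51829 other genes the 7D gene was the closest to the 7B gene, and the 7B gene was 3rd in closeness to the 7D gene (r = 0.995). The 7A gene was 5th for the 7D gene and 4th for the 7B gene. These places depended on single libraries: leaving out RE replicate 1 put the 7B gene 25th for the 7D gene and the 7D gene 24th for the 7B gene. On deviations from the region means they were 57th and 55th. Against the mean profile of the pair, 181 genes (0.349%) reached an r of 0.95 and 9 reached 0.99.

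The 10 genes closest to that mean profile were TraesCS7B01G269900 (r = 0.995), TraesCS4B01G102700, TraesCS7A01G488600, TraesCS1D01G119200, TraesCS3A01G506200, TraesCS3B01G579900, TraesCS3D01G273300 and 3 newly assembled genes without a reference identifier, the last of them at r = 0.988. All 10 are without annotation in the sources used here, and 2 stand on group 7 chromosomes. The IE libraries all exceeded the RE libraries in 8 of the 10, beside 4.35% of all genes tested, a count that likeness to a profile of this shape largely sets. TraesCS7B01G269900 was the most abundant of them, with 102 ± 24.1 FPKM in IE against 58.4 ± 14.1 FPKM in RE (SD of n = 3 libraries), and its log2 fold change of 0.81 was smaller than that of either bZIP gene. TraesCS1D01G119200 rested on 2 to 6 fragments per library, so its likeness has little depth behind it. The newly assembled gene that closed the list likewise had 15, 10 and 24 fragments in IE and 3, 2 and 0 in RE. TraesCS4B01G102700 had 56, 56 and 55 fragments in IE, and another newly assembled gene had 117, 118 and 118. With fragments this even, their order within IE follows the library totals by which the fragments were divided. The 7A gene, with 730, 468 and 786 fragments in IE, differed between libraries before that division.

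**Figure D3:**
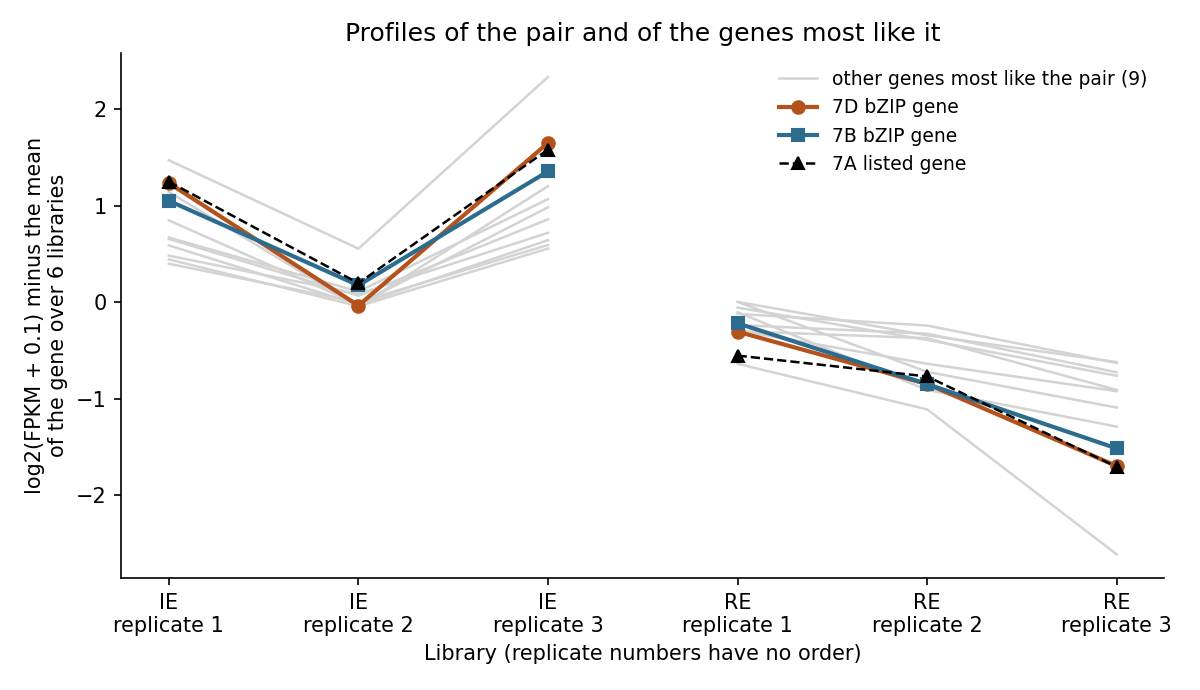
Level on the scale of log2(FPKM + 0.1) minus the mean of the gene over the 6 libraries (vertical axis) in each library (horizontal axis), IE libraries on the left. Coloured lines are the 7D and the 7B bZIP gene, the dashed line is the 7A gene, and grey lines are the other 9 of the 10 genes most like the pair. The bZIP genes and the 7A gene had their highest IE value in replicate 3 and their lowest in replicate 2, and their highest RE value in replicate 1 and their lowest in replicate 3.

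The neighbours of the members, taken as the nearest tested genes in identifier order, did not share the higher level in IE. Among the 10 on each side of the 7D gene the median log2 fold change was −0.12, with 1 of 20 genes having every IE library above every RE library and 5 of 20 the reverse, beside 4.35% and 13.5% of the tested genes of chromosome 7D. Around the 7B gene the median was −0.30, with 0 of 20 above and 4 of 20 below, beside 3.22% and 12.6% of those of chromosome 7B. The counts of genes with IE above RE were near the shares of the chromosomes, and the counts with IE below RE were higher than those shares. Sets of 20 genes are small, and the differences from the chromosomes were not tested. The median over all tested genes was −0.12, and those of chromosomes 7D and 7B were −0.12 and −0.14. The log2 fold changes of neighbours reached at most 0.90 around the 7D gene and 0.22 around the 7B gene.

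The nearest 2 tested genes on each side of the members did not separate the regions. Before the members in identifier order, TraesCS7D01G474700 averaged 6.58 ± 2.04 FPKM in IE against 6.56 ± 0.757 FPKM in RE, and TraesCS7B01G391300 averaged 11.3 ± 3.07 FPKM in IE against 9.76 ± 0.836 FPKM in RE (SD of n = 3 libraries). After them, TraesCS7D01G475900 averaged 5.32 ± 2.37 FPKM in IE against 8.49 ± 1.33 FPKM in RE, and TraesCS7B01G392600 averaged 3.59 ± 1.40 FPKM in IE against 4.91 ± 0.436 FPKM in RE (SD of n = 3 libraries). The regions overlapped in each of these genes. The outer flanking genes, TraesCS7D01G474600, TraesCS7D01G476000, TraesCS7B01G391200 and TraesCS7B01G392700, had log2 fold changes between −0.38 and −0.04.

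Lined up in order, the flanking genes of the 2 chromosomes had matching lengths, a comparison made after the values were seen. TraesCS7D01G474600 and TraesCS7B01G391200 are both 1434 bases long, TraesCS7D01G474700 and TraesCS7B01G391300 both 1278 bases, and TraesCS7D01G476000 and TraesCS7B01G392700 both 1137 bases. Few tested genes have each of these lengths, between 3 and 5 for the lengths before the pair and between 1 and 4 for the length after it, out of 1884 on chromosome 7D and 1647 on chromosome 7B. On chromosome 7A the gene at the second place after TraesCS7A01G488600, TraesCS7A01G489600, is also 1137 bases long. The nearest gene before TraesCS7A01G488600 has 1284 bases, close to the 1278 bases on 7D and 7B. The second gene before it, with 282 bases, and the nearest after it, with 1848 bases, did not match in length. TraesCS7D01G475900 and TraesCS7B01G392600 differ, with 1998 and 2037 bases. The sources used here do not state which genes are copies of each other.

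In the 3 flanking pairs of equal length, the ratio of the 7D to the 7B gene does not depend on the length used. It had a geometric mean of 0.504 in the outer pair before the bZIP genes and 0.622 in the inner pair before them, with the 7D gene above the 7B gene in 0 of 6 libraries in each. It was 0.783 in the outer pair after them, above in 1 of 6 libraries. The inner pair after them, whose lengths are near equal, had a ratio of 1.58, above in 6 of 6 libraries. Where the bZIP pair falls among the 4 flanking pairs depends on the length used. Its ratio was 1.69 on FPKM, on the same side of 1 as the near-equal pair. On fragments it was 0.768, on the same side as the 3 equal-length pairs.

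**Figure D4:**
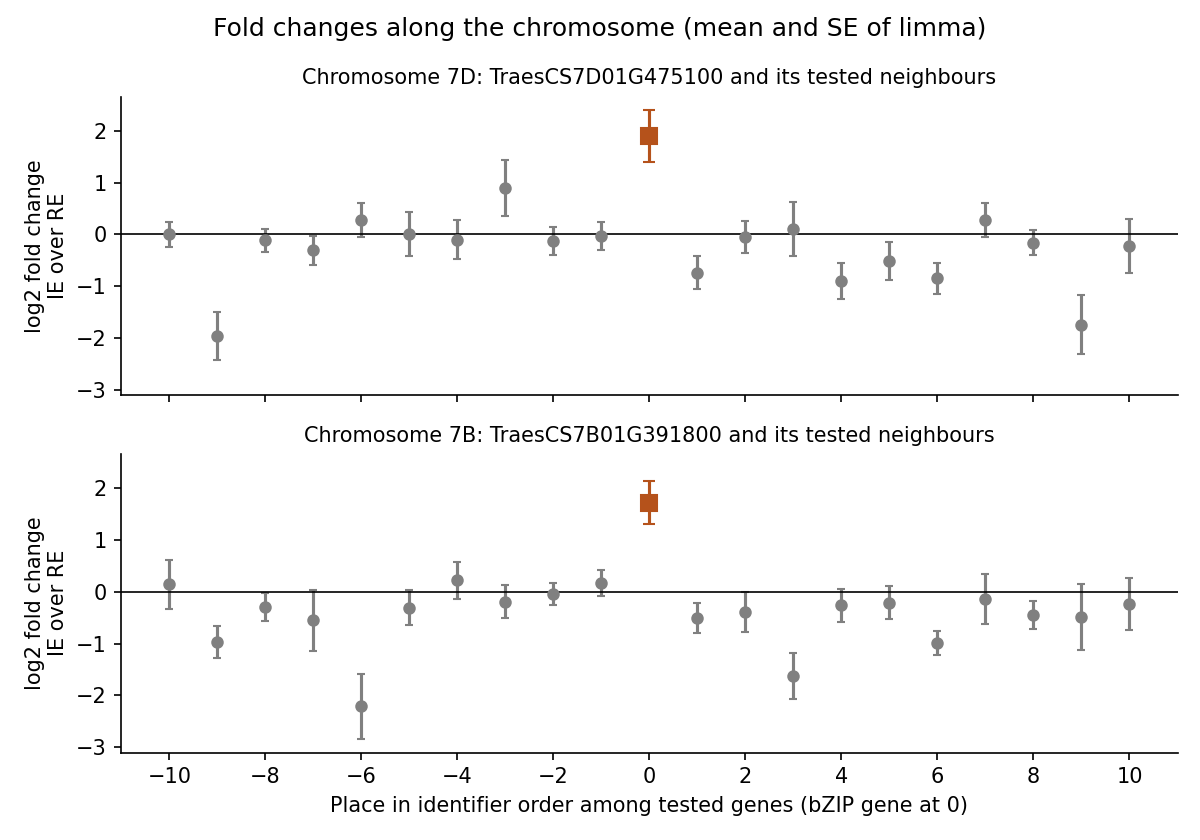
Log2 fold change of IE over RE (vertical axis) of the 10 tested genes on each side of the 7D bZIP gene (upper panel) and of the 7B bZIP gene (lower panel) by place in identifier order (horizontal axis). Points are values of limma with their standard errors, and squares at 0 are the bZIP genes. The bZIP genes lie at 1.90 and 1.72, while their neighbours reach at most 0.90 and 0.22.

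The pair was then set beside other transcription factor genes that the study names. The bZIP gene TraesCS6D01G312800 was read at 17.1, 7.85 and 15.3 FPKM in IE and at 7.83, 5.55 and 7.98 FPKM in RE, so the regions overlapped through IE replicate 2 (log2 fold change 0.85, and 1.19 without that library). Like the pair it had its lowest IE value in that library. The GRAS gene TraesCS2B01G217500, from a family of plant regulators that includes the DELLA proteins of gibberellin signalling, had 3.90, 7.64 and 5.64 FPKM in IE and 0.94, 1.68 and 1.64 FPKM in RE. Its log2 fold change of 1.93 was close to that of the 7D gene, but its highest IE value fell in replicate 2, where the pair was lowest.

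TraesCS7A01G214700, a transcription factor gene whose family the study does not give, ran the other way, with 10.1, 12.7 and 2.70 FPKM in IE and 24.8, 25.8 and 35.7 FPKM in RE (log2 fold change −1.99). Its lowest IE value came from replicate 3, where the pair was highest. TraesCS5A01G101200 was near even, with 3.998 ± 0.620 FPKM in IE against 4.21 ± 0.239 FPKM in RE (SD of n = 3 libraries). TraesCS7D01G217500 had 0 to 4 fragments in a library and was not tested. The study's discussion uses this identifier for the GRAS gene that its results and methods call TraesCS2B01G217500.

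Genes that the study linked to metabolites beside the bZIP genes gave the following values. The nitrate reductase gene TraesCS6A01G017500, which encodes the enzyme that reduces nitrate to nitrite, had 16.1, 27.4 and 3.03 FPKM in IE and 38.8, 61.8 and 102 FPKM in RE. TraesCS6D01G020700, the other nitrate reductase gene, had 15.4, 28.8 and 3.55 FPKM in IE and 54.9, 55.6 and 85.6 FPKM in RE. Both nitrate reductase genes were lower in every IE than in every RE library, and within each region their libraries stood in the reverse order of the pair. The serine-type endopeptidase gene TraesCS4B01G077600 had 14.0, 7.96 and 12.3 FPKM in IE and 5.70, 5.42 and 4.71 FPKM in RE, without overlap (log2 fold change 1.07). The protein kinase gene TraesCS3D01G542300 averaged 1.89 ± 0.535 FPKM in IE against 1.62 ± 0.506 FPKM in RE, with overlap (SD of n = 3 libraries).

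Of the storage protein genes, the gliadin gene TraesCSU01G153800 was read at 44.7, 31.9 and 50.4 FPKM in IE and at 21.1, 24.4 and 25.5 FPKM in RE. Its IE libraries stood in the same order as those of the pair and its RE libraries did not. The globulin gene TraesCS4D01G171800 had 160, 403 and 186 FPKM in IE and 356, 372 and 547 FPKM in RE, so IE replicate 2 lay within the range of RE (log2 fold change −0.87, and −1.28 without that library). The globulin gene TraesCS7D01G351300 was low, with 2.86 ± 2.96 FPKM in IE against 3.86 ± 2.44 FPKM in RE (SD of n = 3 libraries).

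The 7B gene stands on the study's list of genes higher in IE under each nitrogen level, and the 7D gene does not. The other 29 genes of that list, the 7A gene among them, had a median log2 fold change of 1.64, with a range of 1.08 to 2.67. The IE libraries all exceeded the RE libraries in 27 of the 29, against 4.35% of all genes tested, a share that the way the list was chosen favours. The log2 fold change of the 7B gene was exceeded by 13 of the 29 and that of the 7D gene by 9. In 7 of the 29 the libraries stood in the order of the pair in both regions, beside 2.78% of all genes tested and 4.57% of the genes with all IE libraries above all RE libraries.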

How the data were processed

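RNA of 3 IE and 3 RE libraries, grouped by the part given in the labels, was analysed. Per the labels and the study's methods, the authors used the Illumina filter and fastp on the reads, aligned with HISAT2 against the Chinese Spring genome (a popseq release of IWGSC1 in the methods), and deposited FPKM for each gene in each library. Versions, counting tool and use of strand are not given in the sources used here. Reads shared between near-identical copies on 7A, 7B and 7D could be split by the counting, so levels of such copies are uncertain.

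FPKM values were whole fragments times a step per gene, and fragments, gene lengths and library totals were recovered from them for 100% of the 86042 genes with a value (tolerance 0.002). Of the listed genes, 41154 were at 0 in every library. For the comparison of IE with RE, limma 3.58.1 (R 4.3.3) was fitted to log2(FPKM + 0.1) of the 51830 genes whose mean reached 0.5 FPKM, with a variance trend and Benjamini-Hochberg adjustment at 0.05 and a log2 fold change of 1. A fold change on this scale understates the change of low genes. Ratios within libraries were tested with exact two-sided sign-flip permutation tests (scipy 1.17.1, Python 3.11.15), and 3 libraries against 3 cannot give a two-sided p under 0.1. Scripts were tested on simulated data.

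The genes named are the pair, the genes the study names as transcription factors, storage proteins or metabolite-linked genes beside it, the 10 genes with the highest r to the mean profile of the pair and the nearest 2 tested neighbours on each side. The members and lists were chosen with earlier results of these data known. The study calls its replicates biological, but nothing in the labels ties them to plots, so p-values speak for these libraries only. The smallest sign-flip p follows whenever all libraries agree in direction, whatever their spread. Alternatives changed the pseudocount, filter, scaling, variance trend, replicate block, fragments in place of FPKM, neighbours counted and libraries used. 0 identifiers matched the RefSeq table at hand (IWGSC CS RefSeq v2.1), so no names, coordinates or sequences were used here.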

Additional observations from a re-analysis of the deposited data

How the results depend on the processing

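The log2 ratio of the 7D to the 7B gene was 0.76 per length and −0.38 on fragments not divided by length, since the gene models differ in length. It ran from 0.70 to 0.80 when each library was left out, with an exact permutation p of 0.0625, the smallest for 5 libraries. limma called 0 genes in all 6 fits without a library and in every other fit, with smallest adjusted p between 0.0564 (without IE replicate 2) and 0.625, while 2980 genes passed at the unadjusted p. Same-numbered IE and RE libraries had deviations correlated at 0.111, 0.0588 and −0.203. The labels do not say whether they came from the same grains or plots, and these correlations cannot decide it. With a replicate block limma still called 0 genes and the ratio still differed by 0.17 between the regions. The log2 fold changes of the pair stayed between 1.53 and 2.39 for the 7D gene and between 1.40 and 2.07 for the 7B gene without a library. Median-ratio scaling put the median of all genes at 0.0058, against −0.12 on FPKM, and gave 2.03 for the 7D gene and 1.85 for the 7B gene. It raised the genes with every IE library above every RE library to 3576, and leaving out a library, which eases that condition, to between 3411 and 4742. The genes below numbered between 7335 and 14027 (without IE replicate 2) in the same way, against 6188 with all libraries. These alternatives and the fragment ratios and shares of the 7A gene and of the chromosomes were added after seeing the data. The neighbour medians stayed between −0.24 and −0.0026 around the 7D gene and between −0.43 and −0.12 around the 7B gene. The signs of TraesCS5A01G101200, TraesCS7D01G474700, TraesCS7D01G476000 and TraesCS7B01G391200, all near 0, changed under at least 1 setting. That of TraesCS7B01G392700 (log2 fold change −0.38) changed only without IE replicate 3, to 0.004. The log2 ratio of the 7D to the 7B gene had an SD of 0.26 among the 3 IE libraries and 0.09 among the 3 RE libraries. Its difference of 0.17 between the regions is given without a test. In RE each member had only 110 to 343 fragments per library. What size of difference between the members in their response could be detected was not tested.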
